A study of Homo sapiens with 36 samples.

Results

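HT1080 is a human fibrosarcoma line, a tumour of connective tissue origin, and is widely used to study how mesenchymal cells cross matrix. Here its pseudopods were compared with its cell bodies. The 3 pseudopod arrays and 3 cell body arrays labelled HT1080 were taken, which are 6 of the 36 arrays of a series that holds 6 metastatic lines, each with the same 2 fractions and 3 arrays per fraction. The other lines are the glioblastoma lines U87 and U251, the prostate line DU145, the breast line MDA231, and MDA435, whose origin has been disputed. Per the labels, cells sat for 24 h on a porous filter in medium with 10% fetal bovine serum (high glucose DMEM for HT1080). Both faces of the filter were then scraped, the upper for cell bodies and the lower for the processes that had grown through the pores. All HT1080 arrays share the line, the medium and the filter, and the labels name no engineered genetic change or added agent for any group. The labels name no cultures, so p-values measure the spread between replicate arrays, which may be technical. That spread was pooled over all 36 arrays and not taken from HT1080 alone. From each sample 100 ng of total RNA was amplified in 2 cycles and hybridised to an Affymetrix expression array.

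A pseudopod is an actin-rich extension through which a migrating cell probes and enters its surroundings. Messenger RNAs reach it by diffusion and by transport along microtubules, while nuclear RNAs and RNAs translated on the rough endoplasmic reticulum (ER) are held near the nucleus in most cultured cells. Secreted and membrane proteins are made on the ER, fitted with glycans there and in the Golgi, and carried to the surface or to lysosomes. Cytosolic, ribosomal and most mitochondrial proteins are made on free ribosomes or at the mitochondrial surface.

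The values are scaled intensities of probe sets, and a gene is represented by its brightest probe set. A change is the pseudopod mean minus the cell body mean of log2(intensity + 16), given ± its standard error, so that it is smaller than the ratio of raw intensities for dim genes. A gene was called, and is said to rise or fall, where limma gave a Benjamini-Hochberg adjusted p under 0.05 over the 15399 genes tested. Because every array was scaled to the same mean, a change is in the share of a transcript in its fraction's RNA. Fewer cell parts and less RNA per part cannot be told apart.

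The arrays of a fraction resembled each other more than those of the other fraction. Over all probe sets the correlation was 0.987 to 0.990 within fractions (6 pairs) and 0.955 to 0.968 between them (9 pairs). Median intensity was 22.0, 25.9 and 22.5 in pseudopod replicates 1 to 3 and 24.2, 25.1 and 26.7 in the cell body arrays. The 99th percentile was 3685 in pseudopod replicate 1 and between 2677 and 3168 in the other 5, so that array has the longest bright tail. The label was checked against markers. VIM (mean over the 6 arrays 3922), SPARC (3618), COL6A3 (2506), ZEB1 (1321) and SNAI2 (1080), all mesenchymal, were bright. The fibroblast genes COL3A1 (2.80), PRRX1 (8.83), FAP (8.08) and POSTN (12) were near background, and so were the epithelial genes CDH1 (1.20), EPCAM (8.03) and KRT19 (1.00). Of 18 epithelial markers 12 had a mean at or below 16, while KRT18 (1586) and KRT8 (931) were bright. The summed epithelial markers ran from 3145 to 3538 in pseudopods and from 2259 to 2407 in cell bodies, with 0 of 17 members tested called. Most of the sum is KRT18 (2065.8, 1855.0 and 1845.6 against 1277.3, 1216.0 and 1255.5) and KRT8 (1065.7, 1217.9 and 983.0 against 719.6, 847.7 and 754.5), both without overlap. When HT1080 arrays alone set the spread, KRT18 (0.61, adjusted p = 0.00297), KRT8 (0.48, adjusted p = 0.0194) and KRT7 (0.73, adjusted p = 0.0352) were called higher. Blood and endothelial markers summed to 310 to 431 in pseudopods and 341 to 427 in cell bodies, with 1 fall, the dim TEK (-0.98). Melanocytic markers summed to 1876 to 2432 against 1383 to 2095 with 0 calls, most of it RAB27A. Glial and neural markers summed to 2806 to 3777 against 2759 to 3156, most of it TUBB3 (0.55), which rose, while NCAM1 (-1.67), NRCAM (-1.32) and the dim PTPRZ1 (-0.63, lost in 11 alternatives) fell. Mesenchymal markers summed to 13917 to 20083 against 18943 to 22221, with 1 rise and 6 falls among 20. The part of these markers in the results below was not tested.

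Of the 15399 genes, 3833 were called (24.9%). The 1978 that rose (12.8%) and the 1855 that fell (12%) were nearly equal in number but not in size. The median change was 0.63 among genes that rose and -1.23 among those that fell. Of the calls that reached 2-fold, 129 were rises (0.838% of genes tested) and 1217 were falls (7.9%), so that 90.4% of the large changes were losses from the pseudopod. Deep falls were frequent in the lists of secreted, secretory pathway and membrane genes. Of their 463 members tested, 323 fell at any size, so most of the 1217 large falls lie outside these lists. Genes of mitochondria, ribosomes, proteasomes and splicing showed small rises, which for cytosolic ribosomal proteins depended on the scaling. The median over all genes was 0.09, and it became 0.15 with equal array medians, a scaling under which 57.0% rather than 51.6% of the calls were rises. Leaving out cell body replicate 2 reduced the rises to 1218, and leaving out shared probe sets (those whose names mark a possible match to more than 1 transcript) reduced them to 1209.

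**Figure D1:**
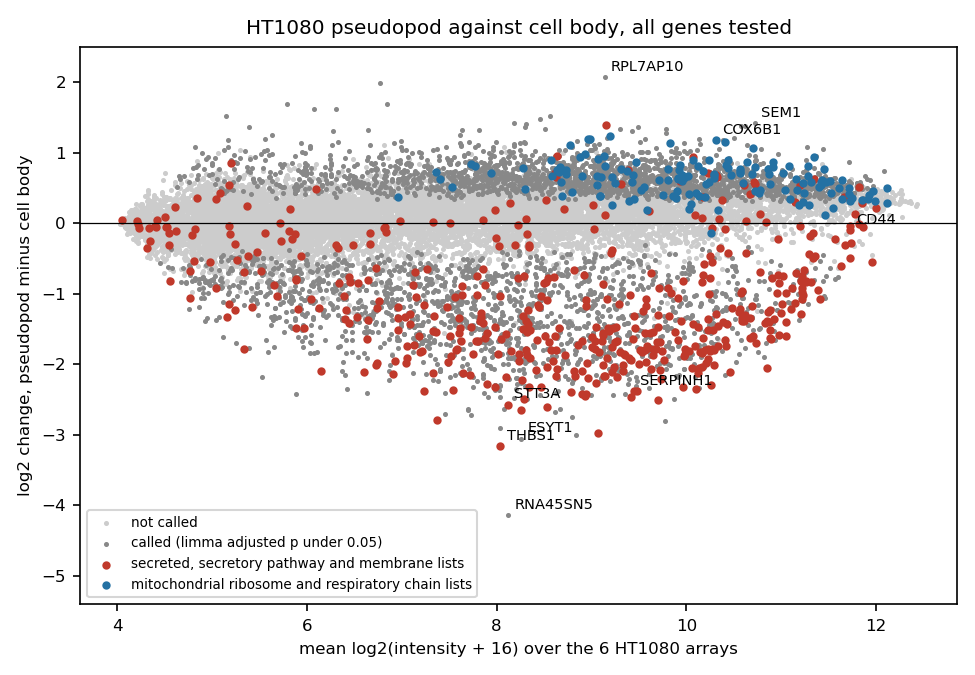
Each point is 1 of the 15399 genes tested, with its mean log2(intensity + 16) over the 6 HT1080 arrays on the x axis and its log2 change on the y axis. Red points, the lists of secreted, secretory and membrane genes, reach below -2 at middle levels and close in on 0 at the bright end, while blue points, mitochondrial ribosome and respiratory chain genes, lie above 0 with few exceptions.

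The deepest fall was that of RNA45SN5, the precursor of the large ribosomal RNAs, which is made in the nucleolus. It read 42.6, 37.0 and 77.8 in pseudopod replicates 1 to 3 and 1364.7, 1245.5 and 901.3 in the cell bodies. The change was -4.14 ± 0.56 (limma adjusted p = 3.08e-06), a 17.6-fold difference on this scale, and the other probe set gave -2.20. The nucleolar RNA SNORA21 read 13.6, 2.90 and 13.6 against 107.8, 124.4 and 132.4 (-2.43 ± 0.32, adjusted p = 2.26e-06). FTX, a long noncoding RNA, fell by 0.74 on the log2 scale. Of 12 nuclear and nucleolar RNAs tested these 3 fell (25.0%, compared with 12% of all genes) and 0 rose, with a list median of -0.14. MALAT1, a nuclear speckle RNA, read 3928.0, 2782.1 and 3522.1 in pseudopods and 4582.4, 4308.0 and 5053.2 in cell bodies. Its arrays did not overlap, and 10 of its 12 probe sets were lower, but it was not called (-0.46 ± 0.34, adjusted p = 0.376; 0.0466 when HT1080 arrays alone set the spread).

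The ER chaperones, which fold newly made secreted and membrane proteins, fell almost as a set. Of 34 tested, 30 fell and 0 rose, with a median of -1.52 (all genes tested: 12% fell, median 0.09). In 32 of the 34 all pseudopod arrays were below all cell body arrays, as they were for 18.4% of all genes. Many of these genes are switched on together when unfolded proteins collect in the ER, through a promoter element known as ERSE, whose letters are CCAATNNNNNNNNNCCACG. It was searched on both strands in the 250 bases before each RefSeq gene start (GRCh38.p14). The element was found in 6 of the 32 ER chaperone promoters that matched (18.8%), in 15 of 12272 promoters of genes tested (0.122%) and in 22 of all 27305 (0.0806%). The 6 stretches with ERSE are printed 5′ to 3′ on the strand of the gene, because they mark the members of this group that share a control element, with the fixed letters of the element in capitals (reverse complement where it lies on the other strand):
HSPA5, chr9:125241376-125241424, minus strand: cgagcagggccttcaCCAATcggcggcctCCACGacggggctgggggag
HSP90B1, chr12:103930201-103930354, plus strand: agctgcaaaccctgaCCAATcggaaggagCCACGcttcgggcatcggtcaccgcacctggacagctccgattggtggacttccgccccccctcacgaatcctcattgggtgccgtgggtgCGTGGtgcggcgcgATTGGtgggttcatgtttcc
CALR, chr19:12938369-12938417, plus strand: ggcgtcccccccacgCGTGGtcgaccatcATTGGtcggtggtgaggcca
CANX, chr5:179698763-179698811, plus strand: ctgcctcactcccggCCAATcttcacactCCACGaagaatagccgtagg
ERO1B, chr1:236282168-236282208, minus strand: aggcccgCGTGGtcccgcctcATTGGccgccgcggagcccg
CRELD2, chr22:49918539-49918587, plus strand: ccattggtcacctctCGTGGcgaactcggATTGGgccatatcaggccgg
HSP90B1 holds 2 matches and the others 1 each. A match describes these letters only, and whether it bears on where the RNA lies was not tested.

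Of the 6 genes with the element 5 fell, and of the whole ER chaperone list 88.2% fell. HSPA5 (BiP, the main ER chaperone of its kind) read 1172.1, 749.8 and 805.4 in pseudopods and 3306.3, 3924.4 and 4017.4 in cell bodies, a change of -2.05 ± 0.33 (adjusted p = 2.60e-05). HSP90B1 (GRP94) read 260.5, 184.1 and 150.5 against 1004.1, 1253.1 and 1131.2 (-2.44 ± 0.55, adjusted p = 0.00116). CRELD2, a secreted ER stress protein, read 705.5, 347.9 and 319.7 against 1503.8, 1826.3 and 1735.6 (-1.93 ± 0.41, adjusted p = 7.19e-04). In each of these 3 every pseudopod array was below every cell body array, and replicate 1 was the highest of the pseudopods. ERO1B, which feeds disulfide bond formation, fell by 1.33 on the log2 scale, a call lost in 7 alternatives (adjusted p 0.0589 to 0.118), and CANX (calnexin, a lectin chaperone) fell by 0.97. CALR (calreticulin, its soluble counterpart) read 231.5, 152.2 and 137.4 against 209.6, 329.2 and 300.5. Its arrays overlapped and it was not called (-0.65 ± 0.38, adjusted p = 0.234), although all 3 of its probe sets were lower, down to -1.94. Without shared probe sets CALR was called (-1.94, adjusted p = 3.17e-04). These 6, HSP90B1 apart, were named for the element and not by the rule for named genes. Among the others, HSPA13 (-2.65), SIL1 (-2.15), the exchange factor of BiP, and SEL1L (-2.09), part of the ER degradation machinery, fell. P4HB, a disulfide isomerase, fell by 1.40 with all 3 probe sets lower.

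The machinery that brings nascent chains into the ER went both ways. Of 24 genes of the translocon, signal recognition particle and signal peptidase, 14 fell and 4 rose (median -0.67). These are 58.3% and 16.7%, compared with 12% and 12.8% of all genes, so the share of rises is near that of all genes. The membrane-embedded members SEC63 (-2.07), SEC61A1 (-1.60) and SEC62 (-1.06) fell, as did SRPRB (-1.79), the membrane-anchored receptor subunit. SEC61A1, the channel itself, read 1076.9, 776.1 and 987.7 in pseudopods and 3141.2, 2960.6 and 2565.6 in cell bodies. The 4 that rose were SRP14 (0.62), SRP19 (0.56) and SRP68 (0.38), which are proteins of the cytosolic signal recognition particle, and SEC61B (0.52), a small tail-anchored membrane subunit whose call was lost in 3 alternatives (adjusted p up to 0.0849). SRP14 read 3654.3, 2862.3 and 3190.6 against 2049.1, 1962.8 and 2259.1, with no overlap. These 4 lie outside the rule and were chosen after their values were seen, and so were the risers named in the next paragraphs except S100A10 and ALG13.

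Genes for N-glycan assembly, which builds the sugar tree and joins it to the nascent chain, had 23 falls and 2 rises among 32 (median -1.12). These are 71.9% and 6.2%, compared with 12% and 12.8% of all genes. STT3A, a catalytic subunit of oligosaccharyltransferase, read 92.9, 121.0 and 83.0 in pseudopods and 668.8, 842.8 and 511.2 in cell bodies (-2.57 ± 0.43, adjusted p = 3.92e-05). Every pseudopod array was below 122 while every cell body array was above 511. ALG1 (-2.79), the first mannosyltransferase of the pathway, and the trimming enzymes GANAB (-2.42) and MOGS (-1.97) fell. The rises were ALG13 (1.39 ± 0.31), which is a soluble subunit held at the membrane by its partner, and OST4 (0.94 ± 0.13), a very short subunit of oligosaccharyltransferase. OST4 read 1639.7, 1390.3 and 1420.0 against 756.7, 712.0 and 817.6. Of the 5 probe sets of ALG13, 2 were lower in pseudopods.

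Golgi glycosyltransferases had 30 falls and 0 rises among 39 (median -1.25). They include EXT2 (-2.46), a heparan sulfate polymerase subunit, B4GAT1 (-2.16) and the mannosidases MAN2A1 (-2.08) and MAN2A2 (-1.95). Vesicle coats and cargo receptors were mixed, with 16 falls and 4 rises among 38 (median -0.40). These are 42.1% and 10.5%, compared with 12% and 12.8% of all genes, so rises were no more frequent than over all genes. Those with the largest falls span the membrane: the lectin LMAN2 (-1.68), TM9SF4 (-1.62), TMED4 (-1.54) and SURF4 (-1.43). The 4 that rose are soluble coat subunits, COPE (0.76), SEC13 (0.68), COPZ2 (0.65, lost in 6 alternatives) and COPZ1 (0.59). COPE read 915.9, 794.7 and 857.2 in pseudopods and 504.0, 478.3 and 510.7 in cell bodies. Lysosomal genes had 28 falls and 0 rises among 33 (median -1.39), with LIPA (-2.38), the acid lipase, CTSD (-2.32), an aspartic protease, SGSH (-2.16) and GUSB (-2.10) at the head.

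Cholesterol synthesis also went both ways, with 8 falls and 4 rises among 18 (median -0.36). These are 44.4% and 22.2%, compared with 12% and 12.8% of all genes. SQLE, the ER-membrane squalene epoxidase, read 269.5, 252.5 and 230.6 in pseudopods and 1159.7, 1342.2 and 1039.9 in cell bodies (-2.16 ± 0.31, adjusted p = 6.65e-06). The later ER-membrane enzymes SC5D (-1.67), MSMO1 (-1.48) and DHCR7 (-1.19) fell. FDPS, an earlier soluble enzyme, read 1669.4, 1398.6 and 1491.7 against 945.0, 852.2 and 963.6 (0.71 ± 0.24, adjusted p = 0.0250, lost in 5 alternatives with adjusted p up to 0.0908). The soluble enzymes PMVK (0.71), MVD (0.86) and IDI1 (0.55) also rose, MVD at a dim level of 33.2, 32.6 and 34.4 against 17.7, 13.4 and 4.4. IDI1 depends on the probe set, since without shared probe sets its value was -0.30 (adjusted p = 0.498). No test of the difference between the soluble and the membrane members was run.

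Matrix genes, which this line makes in quantity, were the next large group. Interstitial collagens and basement membrane genes had 20 falls and 0 rises among 27 (median -1.80). THBS1 (thrombospondin 1), a secreted matricellular glycoprotein, had the deepest fall of any coding gene under the rule. It read 87.5, 74.4 and 57.2 in pseudopods and 744.2, 885.5 and 690.5 in cell bodies, a change of -3.16 ± 0.34 (adjusted p = 2.29e-07), with all 7 probe sets lower. Versican (VCAN), a large proteoglycan, read 238.5, 195.2 and 114.4 against 1078.7, 1879.4 and 1603.5 (-2.97 ± 0.44, adjusted p = 8.62e-06). The groups did not overlap in either gene. LAMA4 (-2.60), COL4A5 (-2.42), COL6A2 (-2.38) and agrin (AGRN, -2.36) had the largest falls of the basement membrane and collagen list, and THBS2 (-2.39) and FBN1 (-2.33) followed among the matricellular genes, of which 17 of 31 fell and 0 rose (median -0.92). Without shared probe sets LAMA4 gave -0.32 (adjusted p = 0.255) and AGRN -0.12 (adjusted p = 0.756), and the other probe set of COL4A5 gave -0.01. COL6A3, bright in both fractions, read 2197.9, 1330.3 and 1713.7 against 3018.9, 3229.6 and 3545.0. Its arrays did not overlap, but it was not called (-0.92 ± 0.36, adjusted p = 0.0628). It was called when HT1080 arrays alone set the spread (adjusted p = 0.00601) and with a pseudocount of 64 (adjusted p = 0.00419). It was also called with array weights (adjusted p = 0.0105) and after quantile normalisation (adjusted p = 0.0251).

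The enzymes that modify collagen fell alongside, 19 of 26 with 0 rises (median -1.44). SERPINH1 (HSP47), the collagen chaperone of the ER, read 363.6, 262.7 and 257.0 in pseudopods and 1532.8, 1989.4 and 1285.6 in cell bodies (-2.38 ± 0.29, adjusted p = 1.04e-06). The prolyl hydroxylases P4HA2 (-2.51) and P3H1 (-2.18), the lysyl hydroxylase PLOD1 (-2.32) and LOX (-1.68), the secreted cross-linking oxidase, fell. FN1 (fibronectin) read 2947.9, 1363.0 and 833.7 against 3346.3, 3742.7 and 3977.0, so pseudopod replicate 1 stood apart from the other two. FN1 was just past the threshold (-1.29 ± 0.48, adjusted p = 0.0484) and missed it in 10 alternatives, with adjusted p up to 0.265 without pseudopod replicate 3, while all 7 of its probe sets were lower, from -2.47 to -0.78.

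Proteases known for invasion were also lower in the pseudopod RNA. Of 27 metalloproteinases, ADAMs and TIMPs, 14 fell and 0 rose (median -0.81). MMP14, the membrane-anchored collagenase of invasive protrusions, read 71.9, 62.6 and 50.1 in pseudopods and 249.8, 248.6 and 218.0 in cell bodies (-1.72 ± 0.24, adjusted p = 4.02e-06). MMP2, the gelatinase that MMP14 activates, read 589.4, 478.5 and 302.9 against 1195.9, 1572.0 and 1253.5 (-1.56 ± 0.27, adjusted p = 5.68e-05). MMP1 (-2.13), MMP16 (-2.07), ADAM10 (-2.11) and ADAM17 (-1.98) fell. In the urokinase system, a cell surface cascade that makes plasmin, 6 of 8 fell and 1 rose. These are 75.0% and 12.5%, compared with 12% and 12.8% of all genes. PLAU (urokinase) read 2039.2, 1253.2 and 993.2 against 2851.7, 3079.6 and 3225.9 (-1.15 ± 0.26, adjusted p = 0.00154), and PLAUR, its receptor, read 1203.9, 691.2 and 900.1 against 2820.3, 2900.5 and 2820.9 (-1.63 ± 0.26, adjusted p = 2.91e-05). All pseudopod arrays were below the cell bodies for both, with replicate 1 the highest. PLAT (-2.06) and MRC2 (-1.51), a collagen uptake receptor, fell. The member that rose, S100A10 (0.54 ± 0.17), is a cytosolic protein that presents plasminogen at the surface. Its call was lost in 4 alternatives, and its other probe set gave -0.47.

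Surface receptors followed. Integrins and tetraspanins had 22 falls and 0 rises among 28 (median -1.45), and proteoglycans, cadherins and Ig-type surface proteins 20 and 0 among 26 (median -1.68). ITGAV, the alpha chain of several fibronectin and vitronectin receptors, read 701.4, 532.4 and 516.0 in pseudopods and 2111.6, 2439.7 and 2484.1 in cell bodies (-1.99 ± 0.30, adjusted p = 1.16e-05). CD9 (-2.10), ITGA4 (-2.02) and ITGA5 (-1.85) fell. N-cadherin (CDH2, -2.27), which joins mesenchymal cells, CDH11 (-2.48) and the glypican GPC6 (-2.17) fell too. MCAM also fell (-1.96). Without shared probe sets CDH11 gave -0.75 (adjusted p = 0.0890) and MCAM 0.08 (adjusted p = 0.846).

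Receptor kinases had 21 falls and 0 rises among 28 (median -1.33). MET, the receptor of the scatter factor HGF, read 462.6, 337.5 and 517.0 against 2318.1, 2389.0 and 1989.8 (-2.32 ± 0.35, adjusted p = 1.13e-05), with all 4 probe sets lower. ROR1 (-1.98), TGFBR3 (-1.87) and ACVR1 (-1.86) fell. Transporters had 27 falls and 0 rises among 32 (median -1.66), led by the zinc importer SLC39A10 (-2.34), the chloride cotransporter SLC12A2 (-2.22) and the calcium pumps ATP2B1 (-2.21) and ATP2B4 (-2.10). In HLA class I presentation 10 of 14 fell and 1 rose (71.4% and 7.1%, compared with 12% and 12.8% of all genes). HLA-B read 636.1, 751.5 and 467.5 against 2295.0, 3178.5 and 2138.0 (-2.01 ± 0.24, adjusted p = 8.20e-07). Class I genes are near-identical over long stretches, so HLA-B and HLA-G (-1.66) may share signal. The member that rose, PSMB10 (0.95 ± 0.27), is a subunit of the cytosolic proteasome. ERAP1 fell by 1.82 on its brightest probe set and gave 0.55 (adjusted p = 0.0213) without shared probe sets.

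**Figure D2:**
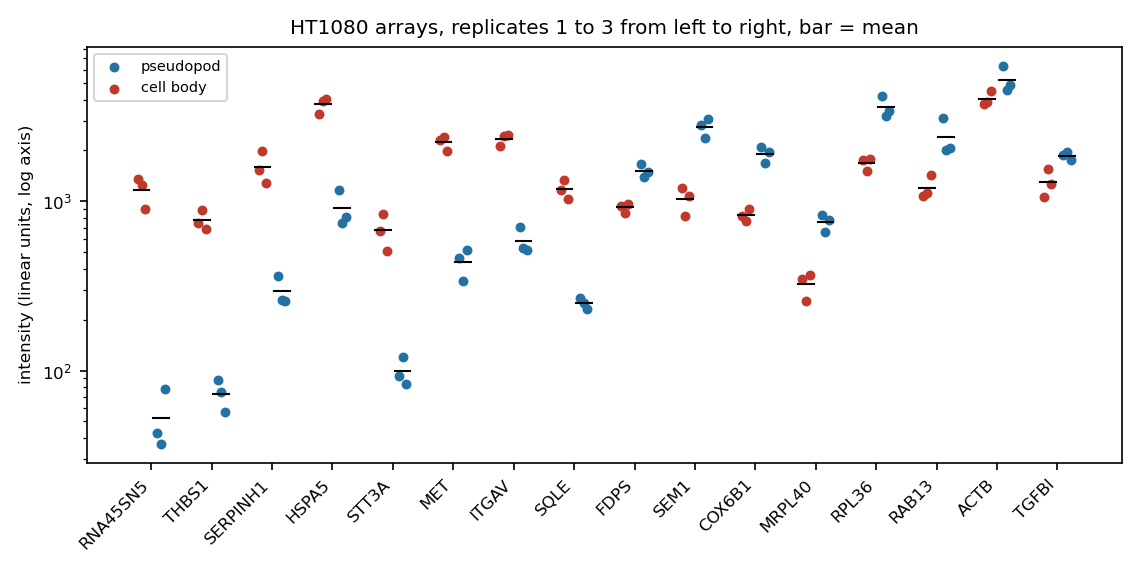
Intensity on a log axis for 16 genes in the 3 cell body arrays (red) and 3 pseudopod arrays (blue) of HT1080, with the mean as a bar. The groups are apart for RNA45SN5, THBS1, SERPINH1, HSPA5, STT3A, MET, ITGAV and SQLE (lower in pseudopods) and for the genes from FDPS to ACTB and TGFBI (higher), though ACTB and TGFBI were not called.

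In all, 463 genes of the 17 secreted, secretory and membrane lists were tested, of which 323 fell and 16 rose (median -1.23). The size of the fall varied with brightness. Among the 76 with a mean HT1080 intensity from 100 to 300, 62 fell (median -1.44), among the 150 from 300 to 1000, 129 fell (median -1.68), and among the 16 above 3000 only 3 fell (median -0.05). CD44, a hyaluronan receptor, belongs to these brightest genes and read 4067.0, 2886.9 and 2899.2 in pseudopods and 3254.9, 3424.4 and 3773.6 in cell bodies. Its arrays overlapped (-0.10 ± 0.23, adjusted p = 0.826), but all 13 of its probe sets were lower, down to -1.16. ITGB1, the shared beta chain of many integrins, likewise gave -0.05 ± 0.17 on its brightest probe set and down to -1.86 on the dimmer ones, with 7 of 7 lower. For CTSB, a lysosomal protease, the brightest gave -0.83 and the other 4 from -2.63 to -1.41. The value of a very bright gene is therefore closer to 0 than that of its other probe sets in these 3, and whether the brightest spots limit the measured change was not tested.

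**Figure D3:**
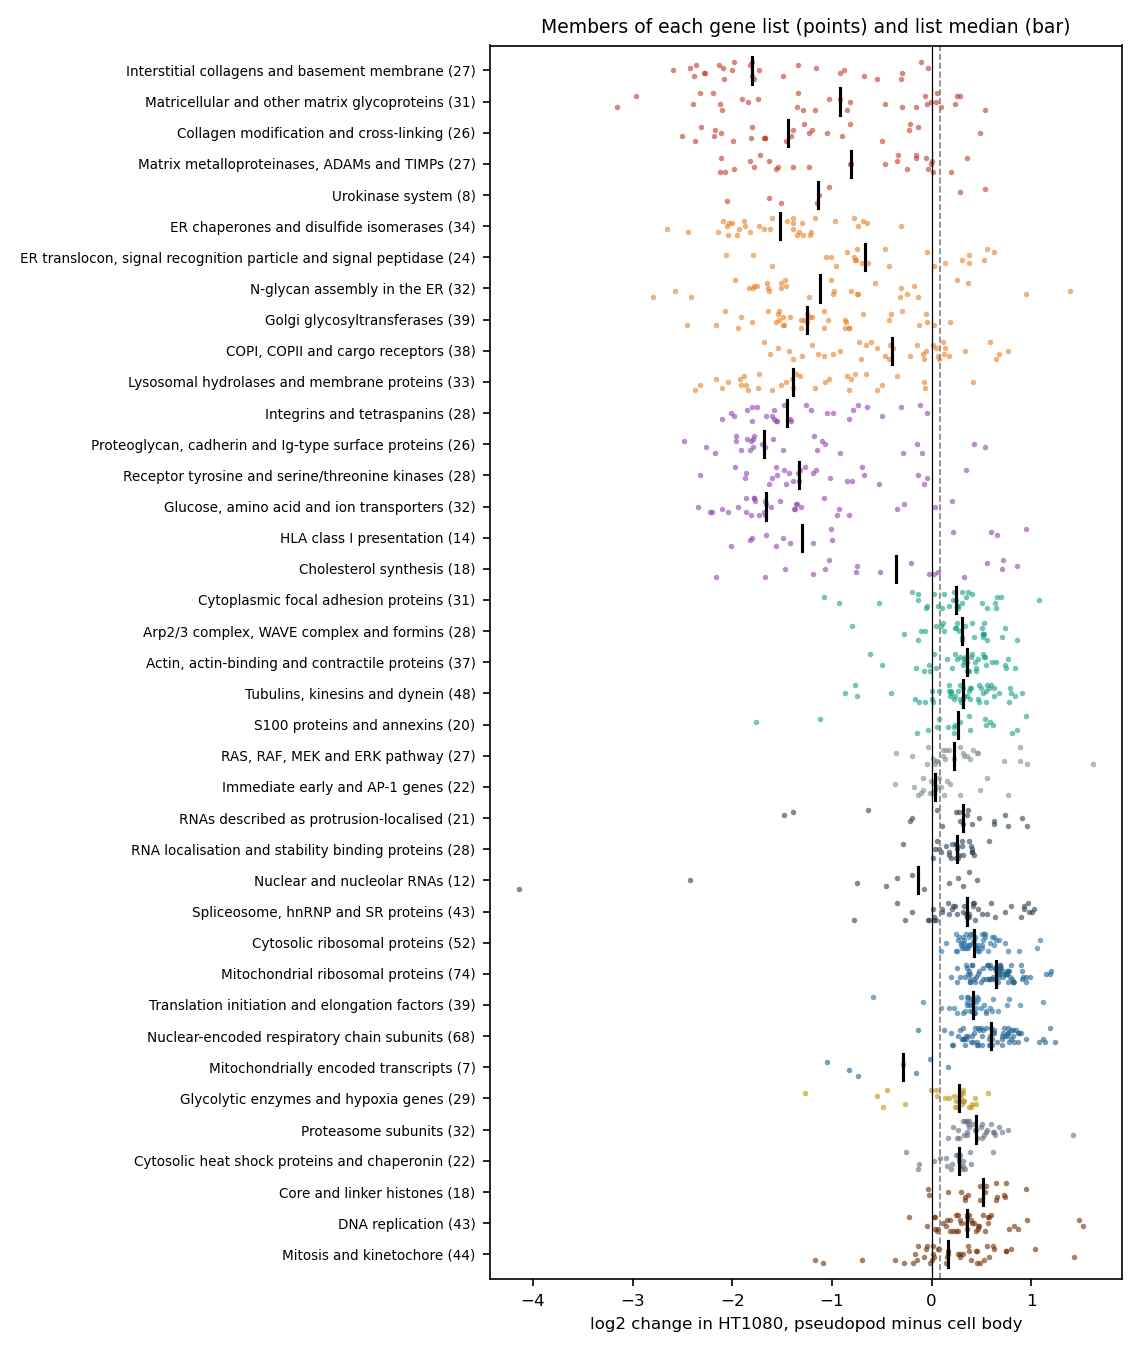
Log2 change in HT1080 of the tested members (points, number in parentheses) of 39 gene lists, with the list median as a black bar and the median of all genes as a dashed line at 0.09. The first 17 lists have medians from -1.80 to -0.36, and the lists below them lie between -0.29 and 0.65.

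Other membrane and secreted genes outside these lists stood among the 15 largest falls. ESYT1, which tethers the ER to the plasma membrane, read 122.1, 75.7 and 78.4 in pseudopods and 876.5, 945.1 and 781.7 in cell bodies (-3.05 ± 0.38, adjusted p = 1.30e-06). C1S, a complement protease, read 220.8, 128.6 and 108.3 against 1058.4, 1557.6 and 1267.4, also without overlap. ITGBL1 (-2.90), a secreted integrin-like protein, and IGF2R (-2.80), which sorts lysosomal enzymes, fell. So did PLXNB2 (-2.75), a semaphorin receptor, PTPRG (-2.72), a receptor phosphatase, and CPD (-2.64), a Golgi carboxypeptidase. The others were ADAM21 (-2.70), RNF149 (-2.67) and SUSD5 (-2.64). PLXNB2 and CPD each had 1 probe set that was not lower.

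Cytoskeleton genes, whose products shape the protrusion, had list medians of 0.24 to 0.36. Genes of actin and its binding and contractile partners had 8 rises and 0 falls among 37 (median 0.36; 12.8% of all genes rose, median 0.09). TMSB10, which holds actin monomers, read 6817.2, 4606.4 and 5619.8 in pseudopods and 3550.9, 3035.6 and 3439.1 in cell bodies (0.75 ± 0.16, adjusted p = 0.00100). PFN1 (profilin) rose by 0.55, CNN2 by 0.76 and TPM4 by 0.74 (adjusted p = 0.0479, lost in 11 alternatives with adjusted p up to 0.224). ACTB itself, whose RNA is a well-known example of transport to the leading edge, read 6322.3, 4535.8 and 4852.9 against 3741.1, 3893.7 and 4467.4. Every pseudopod array was above every cell body array, but the change of 0.36 ± 0.19 was not called (adjusted p = 0.161), and GAPDH, often used as its control, gave 0.27 ± 0.21 with overlapping arrays (-0.02 after quantile normalisation).

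Among Arp2/3, WAVE and formin genes, which nucleate actin, 7 of 28 rose and 1 fell (median 0.30). These are 25.0% and 3.6%, compared with 12.8% and 12% of all genes. BRK1, the smallest WAVE subunit, read 2495.0, 2374.5 and 2298.9 in pseudopods and 1308.3, 1309.9 and 1327.5 in cell bodies (0.85 ± 0.17, adjusted p = 2.51e-04). The Arp2/3 subunits ARPC3 and ARPC1A rose by 0.73 and 0.71. The formin DIAPH1 fell by 0.80, with 2 of 4 probe sets lower and the call lost in 1 alternative (adjusted p = 0.314).

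Focal adhesion proteins had 4 rises and 2 falls among 31 (median 0.24), and the share of rises, 12.9%, is that of all genes (12.8%). Zyxin (ZYX) and PDLIM1 rose by 0.69 and 0.65. Vinculin (VCL), which links integrin adhesions to actin, read 1384.5, 1388.6 and 1238.7 in pseudopods and 2516.3, 2580.4 and 2599.8 in cell bodies (-0.93 ± 0.17, adjusted p = 1.63e-04), and tensin TNS1 fell by 1.08 (-0.52 without shared probe sets, adjusted p = 0.122). Of 48 tubulin, kinesin and dynein genes 15 rose and 3 fell (31.2% and 6.2%, compared with 12.8% and 12% of all genes, median 0.32). The small dynein light chains and dynactin subunit DYNLRB1 (0.84), DYNLT1 (0.79) and DCTN6 (0.91) rose, and the dynein heavy chain DYNC1H1 fell by 0.87 with 6 of 7 probe sets lower, though this call was lost in 7 alternatives (adjusted p 0.0556 to 0.0968).

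RNAs described by others as localised to protrusions had 6 rises (28.6%) and 3 falls (14.3%) among 21 (median 0.32). Of all genes 12.8% rose and 12% fell, so the share of falls is near that of all genes. RAB13, a small GTPase whose RNA is a standard example, read 3090.2, 2017.5 and 2055.2 in pseudopods and 1071.1, 1128.5 and 1423.3 in cell bodies (0.96 ± 0.22, adjusted p = 0.00171). RASSF3 rose by 0.91. NET1 read 1360.2, 1124.7 and 1126.2 against 737.0, 714.0 and 866.8, with no overlap, and missed the threshold (0.63 ± 0.24, adjusted p = 0.0596). When HT1080 arrays alone set the spread, NET1 was called (adjusted p = 0.00751). The members that fell are the collagen receptor DDR2 (-1.48) and P4HB (-1.40), both made on the ER, and DENND4C (-0.64, adjusted p = 0.0274, lost in 6 alternatives), a Rab exchange factor named after its value was seen. EIF4E, the cap-binding factor, gave 0.45 ± 0.21 (adjusted p = 0.116) and SEPTIN9 0.24 ± 0.22 (adjusted p = 0.475). EIF4E too was called when HT1080 arrays alone set the spread (adjusted p = 0.0121).

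In the list of S100 proteins and annexins 2 of 20 rose (10.0%, compared with 12.8% of all genes) and 2 fell. The 2 that fell are AHNAK and AHNAK2, scaffolds that the list also holds, so no S100 protein or annexin was called lower. S100A11, a calcium-binding protein, read 872.8, 929.6 and 1025.5 in pseudopods and 537.6, 411.0 and 496.7 in cell bodies (0.95 ± 0.28, adjusted p = 0.0115). AHNAK, a giant scaffold bound by S100A10, read 534.6, 453.1 and 462.3 against 1583.5, 1832.5 and 1631.6 (-1.77 ± 0.32, adjusted p = 1.07e-04). Of its 5 probe sets 3 were lower and the highest gave 0.15. AHNAK2 fell by 1.12, a call lost in 4 alternatives. In the ERK pathway 6 of 27 rose (22.2%, compared with 12.8% of all genes) and 0 fell. MAPK3 (ERK1) read 110.6, 156.3 and 105.7 against 17.4, 53.7 and 23.1 (1.62 ± 0.28, adjusted p = 5.19e-05), on a shared probe set, the only one it has. HRAS, MAP2K2 and RRAS rose by 0.96, 0.89 and 0.89, MAP2K2 and RRAS with calls lost in 2 alternatives each. Immediate early genes, which ERK induces, had 1 rise among 22 (4.5%), KLF2 (0.77), lost in 2 alternatives.

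Nuclear genes for mitochondrial proteins rose in large part. Of 74 mitochondrial ribosomal proteins 56 rose and 0 fell (median 0.65), and in 72 all pseudopod arrays were above all cell body arrays, as they were for 29.5% of all genes. MRPL40 read 826.7, 659.7 and 771.6 in pseudopods and 346.7, 256.3 and 367.6 in cell bodies (1.19 ± 0.19, adjusted p = 1.83e-05). MRPS11, MRPL33 and MRPS25 rose by 1.20, 1.15 and 0.98, MRPS25 with its call lost in 2 alternatives (adjusted p up to 0.272). Of 68 nuclear-encoded respiratory chain subunits 48 rose and 0 fell (median 0.59). COX6B1, a subunit of cytochrome oxidase, read 2091.0, 1683.4 and 1957.7 against 815.7, 770.6 and 907.5 (1.18 ± 0.19, adjusted p = 2.84e-05). ATP5F1D, NDUFB10 and NDUFA3 rose by 1.23, 1.14 and 1.11.

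Transcripts made inside mitochondria did not rise with them. Of 7 tested 2 fell (28.6%, compared with 12% of all genes) and 0 rose (median -0.29). COX3 read 1136.3, 495.3 and 582.2 in pseudopods and 1246.3, 1340.6 and 1807.6 in cell bodies (-1.05 ± 0.30, adjusted p = 0.00975), and ND2 read 3403.3, 1541.0 and 1958.4 against 3566.1, 3526.6 and 3856.6 (-0.74 ± 0.26, adjusted p = 0.0333). In both, pseudopod replicate 1 lay close to the cell bodies and far above the other two. Neither call held in all leave-one-out fits. Without pseudopod replicate 2 the values were -0.82 (adjusted p = 0.0772) for COX3 and -0.50 (adjusted p = 0.221) for ND2.

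Translation, proteolysis and splicing genes showed smaller rises. Of 52 cytosolic ribosomal proteins 17 rose and 0 fell, and all lay between 0.09 and 1.08 (median 0.43). After quantile normalisation their median was 0.13, with 0.12 over all genes. RPL36 read 4209.5, 3183.2 and 3408.2 in pseudopods and 1753.4, 1515.1 and 1777.8 in cell bodies (1.08 ± 0.18, adjusted p = 3.94e-05), and RPL11, RPL23A and RPL32 rose by 1.06, 0.88 and 0.77. Ribosomal protein genes have many near-identical processed copies, and RPL7AP10, such a copy, had the largest rise of all named genes (2.07 ± 0.30), so its signal may come from its parent. Of 39 translation factors 18 rose and 0 fell, with EIF4EBP1, a brake on cap-dependent initiation, at 1.11, EIF5A at 0.88, EIF4EBP2 at 0.78 and EIF4E2 at 0.76.

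Of 32 proteasome subunits 18 rose and 0 fell (median 0.44). SEM1, the smallest of them, read 2846.1, 2366.9 and 3064.5 in pseudopods and 1194.0, 824.2 and 1072.7 in cell bodies (1.42 ± 0.24, adjusted p = 4.58e-05), and PSMD9, PSMC4 and PSMB6 rose by 0.77, 0.70 and 0.68. Of 43 splicing genes 16 rose and 1 fell (median 0.35), with the small core proteins LSM3 (1.02), SF3B5 (1.01), SNRPC (0.97) and LSM7 (0.97) in front. RNA-binding proteins known from localisation and stability had 3 rises among 28 (10.7%, compared with 12.8% of all genes). These were YBX1 (0.58), KHDRBS1 (0.40) and FXR1 (0.38), with calls lost in 2, 6 and 6 alternatives. Cytosolic heat shock proteins and chaperonin subunits, the cytosolic counterpart of the ER chaperones, had 1 rise among 22 (4.5%, compared with 12.8% of all genes) and 0 falls. It was DNAJB1 (0.39, adjusted p = 0.0490, lost in 8 alternatives).

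Genes of proliferation were not absent from the pseudopod. Histones had 6 rises and 0 falls among 18 (33.3% rose, compared with 12.8% of all genes, median 0.51). Among those that rose were H2BC5 (0.95), H2BC12 (0.74), H2AZ2 (0.66) and H2AX (0.65, lost in 6 alternatives). Histone genes are near-identical, and probe sets of the H2B genes may not be specific. DNA replication had 12 rises and 0 falls among 43 (27.9% rose, compared with 12.8% of all genes, median 0.35). RPA3, a subunit of the single-strand binding complex, read 659.1, 549.8 and 662.3 in pseudopods and 179.6, 185.7 and 265.1 in cell bodies (1.52 ± 0.23, adjusted p = 1.18e-05). POLD4 (1.48), GINS2 (0.96) and CDT1 (0.87) rose as well. The POLD4 call was lost in 7 alternatives (adjusted p 0.0576 to 0.111), and GINS2 gave 0.21 without shared probe sets (adjusted p = 0.763). Mitosis genes went both ways, with 10 rises and 3 falls among 44 (22.7% and 6.8%, compared with 12.8% and 12% of all genes). The kinetochore genes CENPH and CENPN rose by 1.43 and 1.04, while anillin (ANLN, -1.17), the contractile ring scaffold, and the spindle pole gene ASPM (-1.09) fell. Without shared probe sets CENPN gave 0.56 (adjusted p = 0.0829) and ASPM -0.61 (adjusted p = 0.160).

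Glycolytic and hypoxia genes changed little, with 1 rise and 2 falls among 29 (median 0.27). These are 3.4% and 6.9%, compared with 12.8% and 12% of all genes. The genes called were ANKRD37 (0.56), CA12 (-1.27), a membrane carbonic anhydrase, and PKM (-0.49, adjusted p = 0.0484). Their calls were lost in 5, 3 and 11 alternatives, for PKM with adjusted p up to 0.349. Among the remaining largest rises, NUDT14 (1.69) and BCL7C (1.40) are cytosolic and nuclear proteins. The small proteins C19orf53 (1.38) and MT1HL1 (1.38, a metallothionein-like gene whose family is near-identical) were bright, at 2357.8 to 2667.2 and 2006.7 to 3146.4 in pseudopods. Secreted and membrane products also occur among these rises. CCL20, a secreted chemokine, was at 103.7, 84.5 and 64.9 in pseudopods and 14.3, 13.2 and 17.0 in cell bodies. The groups were apart, but the call (1.69 ± 0.57, adjusted p = 0.0285) was lost in 7 alternatives, with adjusted p up to 0.0930. GALR3, a neuropeptide receptor, rose by 1.62 from a dim level. PROM2 rose by 1.99 on a shared probe set, and its other 4 probe sets gave -0.03 to 0.34; without shared probe sets it was not called (adjusted p = 0.386).

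The HT1080 change was then set against the mean change of the other 5 lines, with no array on both sides. Over the 15399 genes the HT1080 changes correlated with that mean at r = 0.88 (U87 0.84, MDA435 0.77, U251 and MDA231 0.76, DU145 0.72), as a description across genes, which are not independent and share the array design. Among genes called in HT1080, 99% had the same sign as the mean. For 11 of the 17 secreted, secretory and membrane lists the HT1080 median was below that of every other line, with U87 the closest in most. The test of the difference called 88 genes (0.571%), of which 17 were more positive (0.11%) and 71 more negative (0.461%) in HT1080. Its p-values rest on the spread between replicate arrays and do not measure how far the change varies from line to line. For CDH2, as an example, the other 5 lines ran from -1.90 to 0.24. Whether HT1080 is unusual among lines was therefore not tested.

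**Figure D4:**
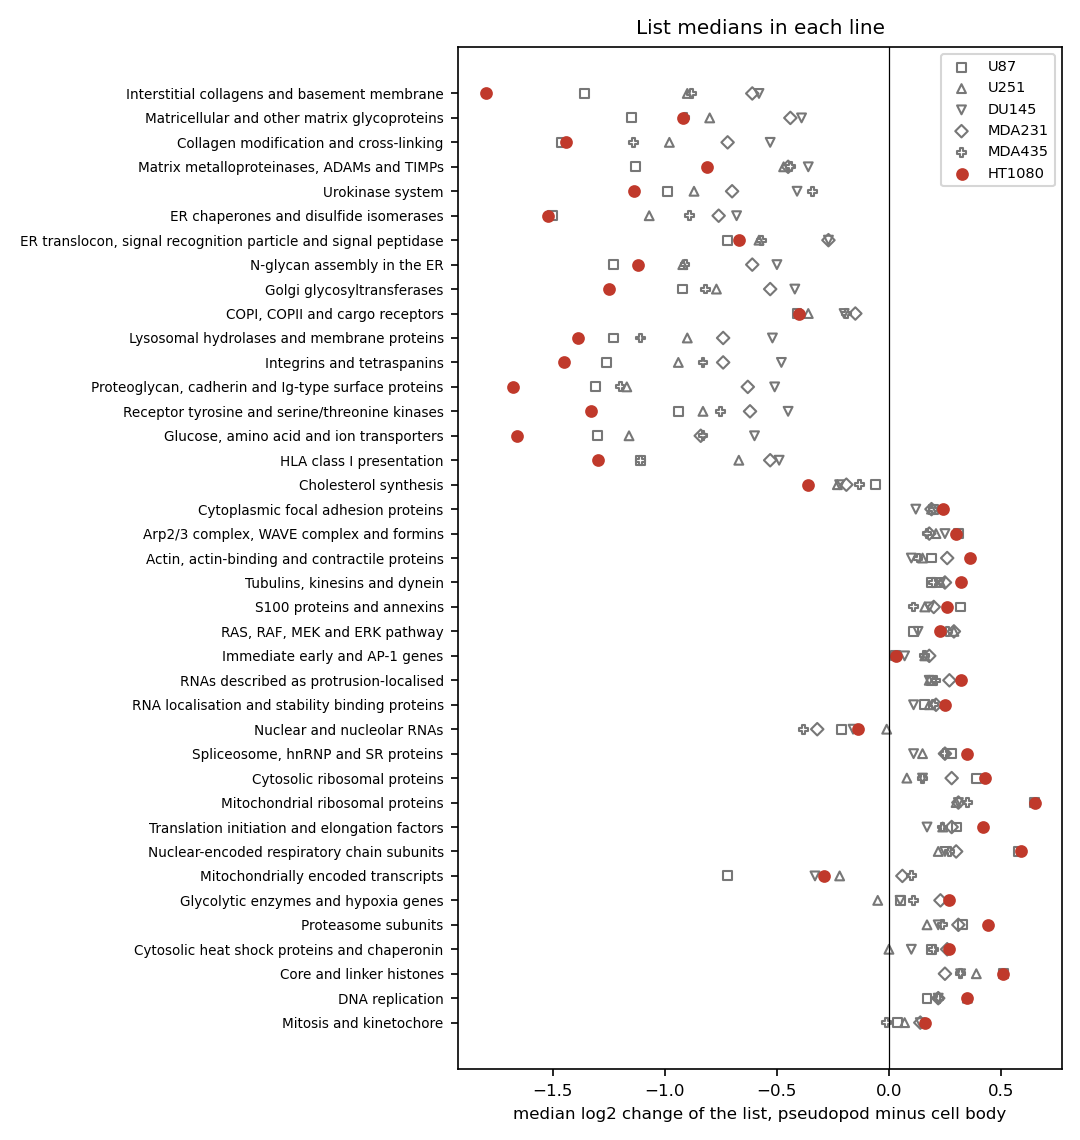
Median log2 change of each gene list in HT1080 (red) and the other 5 lines (grey symbols). In the first 17 lists the HT1080 medians are at or near the low end, for collagens and basement membrane at -1.80 against -1.04 with the other lines averaged, and in most of the remaining lists they are at the high end.

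All 71 of the more negative genes also fell in HT1080. In 40 of them (56.3%) the HT1080 cell body level was the highest of the 6 lines, compared with 12.5% of all genes, and in 26 (36.6%, compared with 7.97% of all genes) at least 3 of the other lines had a cell body mean at or below 16. Of the 17 more positive genes, HT1080 was highest in 9 (52.9%), and 10 were as dim in 3 or more other lines (58.8%). The genes were picked by a difference that contains the HT1080 cell body level, and a gene could enter the tests through HT1080 alone. The shares of all genes are therefore not a fair baseline, and these counts are a description only. A gene so dim in a line has little room to fall there on this scale. ANPEP (aminopeptidase N), a surface peptidase, read 597.2, 352.3 and 400.7 in HT1080 pseudopods and 2049.5, 1966.2 and 2093.7 in its cell bodies, while the cell body means of the other lines were 3.13 to 7. Its difference of -2.07 ± 0.20 (adjusted p = 1.17e-07) therefore compares a fall with lines that hardly express it, and its other 2 probe sets gave -0.08 and 0.13. NID1 (nidogen 1, -1.89), ITGBL1 (-2.29) and SUSD5 (-2.09) were at or below 16 in the cell bodies of 3, 3 and 2 other lines.

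Other named differences concerned genes above 16 in the cell bodies of every line. THBS1 was lower in pseudopods of all 5 others too, at -1.98 to -0.72, from cell body means of 52.2 to 1474.4. Its difference was -1.98 ± 0.38 (adjusted p = 0.00653), but it was -0.85 (adjusted p = 0.206) over all probe sets and -1.31 (adjusted p = 0.138) without shared ones. HLA-B had a lower cell body mean in HT1080 (2537) than in any other line (2819 to 4709), and it fell more, with a difference of -1.30 ± 0.27 (adjusted p = 0.0116). PTPRG gave -1.71 to -0.71 elsewhere and -2.72 in HT1080 (difference -1.36 ± 0.27, adjusted p = 0.00815). MMP14 (-1.11), THBS2 (-1.66), NCAM1 (-1.11) and ADAM21 (-2.03) were also above 16 everywhere, with the highest level in HT1080 and other-line levels as low as 22.0 for THBS2 and 34.2 for ADAM21. The ADAM21 difference was lost in 10 alternatives and was -0.84 (adjusted p = 0.374) without shared probe sets.

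TGFBI, a secreted matrix protein that binds integrins and collagen, went against its group. It read 1875.1, 1966.7 and 1749.0 in HT1080 pseudopods and 1068.4, 1543.6 and 1267.7 in cell bodies, with no overlap. This change of 0.54 ± 0.34 was not called (adjusted p = 0.277), but it was when HT1080 arrays alone set the spread (adjusted p = 0.0250). In the other lines TGFBI gave changes of -1.89 to -0.62, from cell body means of 427 to 5273. The difference was 1.69 ± 0.37 (adjusted p = 0.0241), and it missed the threshold without any 1 of the 6 HT1080 arrays (adjusted p from 0.0515 to 0.119). MANSC1, a membrane protein, gave a difference of 1.19 ± 0.28, with 0.52 in HT1080 (adjusted p = 0.151, and 0.0122 with HT1080 arrays alone). This difference was lost in 11 alternatives, with adjusted p up to 0.174, among them all 6 that leave out an HT1080 array.

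The other 6 named positive differences had low levels on at least 1 side. CTSC (1.22) and TMEM171 (1.12) had HT1080 cell body means of 3.20 and 7.87 and had negative changes in all 5 other lines, where they were expressed. The noncoding RNAs MARCHF6-DT (1.46), LOC101928697 (1.18) and PICSAR (0.90) and the cancer-testis gene PAGE5 (1.02) rose in HT1080, and the other lines had cell body means of at most 41.9 for these 4. The differences of CTSC, PICSAR, TMEM171 and PAGE5 were lost in 11, 10, 6 and 4 alternatives. LOC101928697 read 158.2, 120.1 and 152.2 in HT1080 pseudopods and 59.8, 36.3 and 47.9 in its cell bodies, against 0.333 to 4.4 in the cell bodies of the others.

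**Figure D5:**
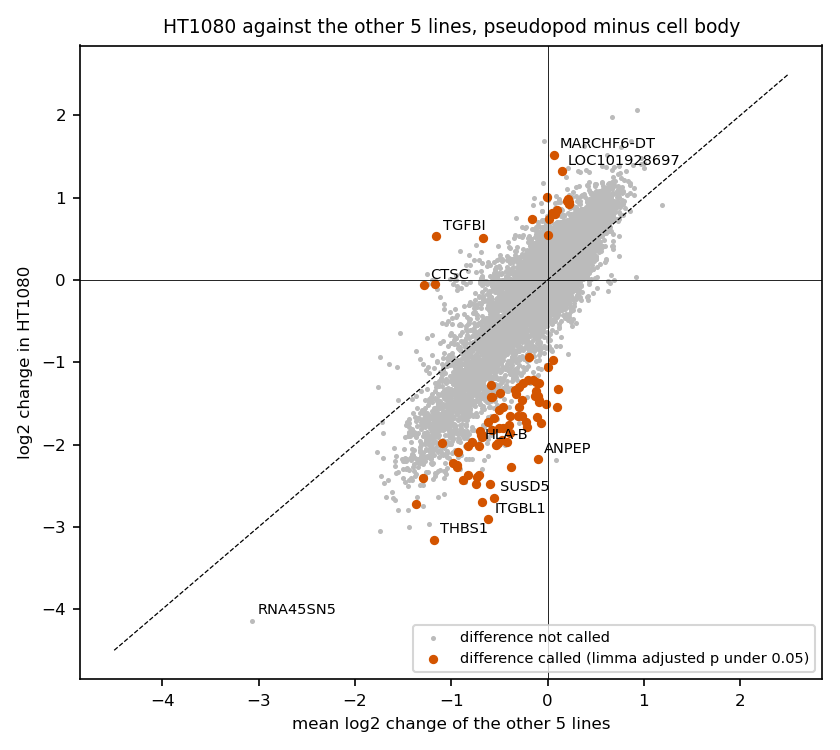
Log2 change in HT1080 (y axis) against the mean of the other 5 lines (x axis) for each gene tested, with the 88 called differences in orange and the line of equality dashed. Most orange points lie below the line with HT1080 falls near -1 to -3, and TGFBI lies above 0 in HT1080 and below 0 in the mean of the others.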

How the data were processed

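The deposited table holds linear intensity values made by the authors, 1 column per array and 54593 probe sets; their trimmed means (2% off each end) of 149.18 to 149.59 show scaling to a common mean. RMA and Partek appear in the submitters' processing notes with no stated role; RMA would give log2 values, which these are not. Of the probe sets, 41074 carry 1 gene symbol (platform annotation, updated by RefSeq), 1798 several and 11721 none; the last 2 kinds give no name here. A gene (19775 in all) was read from its brightest probe set over all arrays, and 15399 entered the tests because at least 1 of their group means was 24.4 or more, the median over the table.

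From the intensities log2(intensity + 16) was computed and fitted with limma 3.58.1 (R 4.3.3) as 12 group means over all 36 arrays (24 residual degrees of freedom, two-sided tests). The residual spread on this scale was 0.23 in HT1080 pseudopods and 0.22 in HT1080 cell bodies. It was larger in MDA231 (0.41 in both fractions), MDA435 (0.43 in pseudopods, 0.38 in cell bodies) and U87 pseudopods (0.37), and 0.22 to 0.27 in the remaining groups. Standard errors and calls for HT1080 thus draw on noisier lines as well. In a simulation over 15399 genes, 100 were changed 2-fold and 100 1.5-fold, with noise drawn independently for each gene. In the pseudopod contrast 62% of 2-fold and 19% of 1.5-fold changes were recovered with 1 false call. For the difference from the other lines these were 57%, 13% and 1. Far more genes were called in the pseudopod contrast of the data, so these rates need not hold there. The number of arrays limits the precision.

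The arrays, gene lists and rules were chosen with earlier results of these data known. By rule, the text names the 15 largest rises and the 15 largest falls that were called and whose arrays do not overlap, up to 4 called members per list (or the largest change where none was called), the 8 largest differences from the other lines in each direction, and a set fixed by name. Alternatives covered scaling, pseudocount, filter, probe set choice, spread estimate, replicate block, and leaving out each HT1080 array or another line. Same-numbered HT1080 arrays deviated together with r = -0.17, 0.20 and -0.23, so the numbers were not taken as pairs. A further gene list is not reported here.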

Additional observations from a re-analysis of the deposited data

Results flagged for a closer look

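For 22 named genes the change in HT1080 differed from the mean change of the other 5 lines by the limma test of that difference (adjusted p under 0.05), which called 0.571% of all genes. More negative in HT1080 were ITGBL1 (-2.29), SUSD5 (-2.09), ANPEP (-2.07), ADAM21 (-2.03), THBS1 (-1.98), CDH11 (-1.89), NID1 (-1.89), SCG2 (-1.74), THBS2 (-1.66), PTPRG (-1.36), CDH2 (-1.32), HLA-B (-1.30), MMP14 (-1.11) and NCAM1 (-1.11). SCG2, a granin of secretory granules, gave -2.48 in HT1080, and its cell body means elsewhere ran from 15.8 to 4676; its difference was lost in 12 alternatives (adjusted p up to 0.331). CDH2 and CDH11 were each at or below 16 in the cell bodies of 2 other lines, and CDH2 gave -1.79 in U87 and -1.90 in MDA435, where it was expressed. The CDH11 difference was -0.50 (adjusted p = 0.826) without shared probe sets, and that of ADAM21 was lost in 10 alternatives. More positive were TGFBI (1.69), MARCHF6-DT (1.46), CTSC (1.22), MANSC1 (1.19), LOC101928697 (1.18), TMEM171 (1.12), PAGE5 (1.02) and PICSAR (0.90). Of these 8, CTSC and TMEM171 were near background in HT1080 and 4 were dim in the other lines, while TGFBI and MANSC1 were above 100 in the cell bodies of every line. Their differences were lost in 9 and 11 alternatives. The part of the expression level in these differences was not tested.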

How the results depend on the processing

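The count of rises (1978) became 1209 without shared probe sets, 2999 with HT1080 arrays alone and 3656 with array weights, and 1218 to 1573 when each HT1080 array was left out. The count of falls (1855) stayed within 1.5 times in every alternative run, with 1561 to 1716 when each array was left out. Differences from the other lines were less stable. The 17 more positive became 11 with equal medians, 1 with a pseudocount of 1, 36 with 64, 187 with array weights, 55 without U87, 10 without U251, 11 without DU145 and 4 to 11 in leave-one-out fits. The 71 more negative became 5 with a pseudocount of 1, 127 with 64, 465 with array weights, 299 without U87, 41 without DU145 and 33 to 58 in leave-one-out fits. With the replicate number as a block, for which the data gave no pairing, rises were 1356, falls 1649 and differences 5 and 41. Signs turned for MCAM (0.08), IDI1 (-0.30) and ERAP1 (0.55) without shared probe sets, for GAPDH after quantile normalisation (-0.02), and for values near 0: CTSC (0.01 with equal medians, 0.15 as a mean of all probe sets), TMEM171 (0.02 and 0.09 likewise, 0.00 after quantile normalisation, -0.12 to 0.04 in leave-one-out fits) and ITGB1 (0.02 with equal medians, -0.25 to 0.09 in leave-one-out fits). The cause was not tested. Of 239 named gene results, 155 kept direction and side in all alternatives that held the gene, 66 lost a call in at least 1 and 13 gained a call. The 13 were the HT1080 changes of KRT7, KRT8, KRT18, PMEL, TGFBI, MANSC1, MALAT1, NET1, EIF4E, CD44, ITGB1, CALR and COL6A3. Genes with only shared probe sets, such as MAPK3, SERPINH1, ESYT1 and CENPH, were absent from the alternative without them. List medians changed sign for 4 of 44 lists, the immediate early, mesenchymal, melanocytic and glial ones. Other medians kept their sign but moved. With a pseudocount of 64 metalloproteinases gave -0.45, matricellular genes -0.53 and cholesterol synthesis -0.20. Without shared probe sets these were -1.46, -1.16 and -0.75. After quantile normalisation, where all genes had a median of 0.12, cytosolic ribosomal proteins gave 0.13 and respiratory chain subunits 0.39. Splicing and RNA-binding proteins gave 0.19 each, heat shock proteins 0.07 and glycolytic genes 0.04. Dim probe sets limit what can be seen: 39.3% to 43.7% of an HT1080 array lay at or below 16.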

Other observations

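Genes of cytosolic and nuclear proteins also fell in HT1080 pseudopods, and how many did so was not counted. Among them were VCL (-0.93) and TNS1 (-1.08), adhesion proteins, DIAPH1 (-0.80), a formin, and DYNC1H1 (-0.87), the dynein motor chain. Others were CLIP1 (-0.77, adjusted p = 7.08e-04), a microtubule plus end protein, and APC (-0.75, adjusted p = 6.33e-04), whose protein also binds microtubules. The scaffolds AHNAK (-1.77) and AHNAK2 (-1.12), the mitosis genes ANLN (-1.17), ASPM (-1.09) and CENPF (-0.70), and CLK1 (-0.78), a kinase of splicing factors, fell as well. CLIP1, APC, CENPF and CLK1 were chosen after their values were seen. CENPF was at the threshold and lost its call in 13 alternatives, with -0.05 (adjusted p = 0.925) without shared probe sets, where APC gave -0.33 (adjusted p = 0.371), ASPM -0.61 (adjusted p = 0.160) and TNS1 -0.52 (adjusted p = 0.122). The DYNC1H1 call was lost in 7 alternatives that of AHNAK2 in 4, and those of AHNAK and DIAPH1 in 1 each. VCL, CLIP1, ANLN and CLK1 kept their calls in all alternatives run.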
